A study of Mus musculus with 15 samples.

Results

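Transcripts of 9 chemokines and of the colony factor Csf1, 10 of the 34432 genes listed, were measured by RNA-seq in CT26, a colon carcinoma cell line of the mouse. They were chosen by symbol as secreted factors through which tumour cells act on leukocytes, with earlier results of these data known. Each was followed in both experiments against the control cells of the same experiment. The knockdown experiment held 3 shControl libraries (genotype given as Ctrl knockdown) and 3 shPrmt1 libraries (Prmt1 knockdown). The shPrmt1 cells were a stable line in which doxycycline (DOX) induces the hairpin, and they had DOX for 3 days. Whether the shControl cells also had DOX is not given in the labels. The inhibitor experiment held 3 libraries each of WT CT26 cells given Vehicle, MS023 or GSK3368715, both small-molecule inhibitors of PRMT1 used at 6 µM for 48 h. PRMT1 is an arginine methyltransferase, and the comparisons ask how its loss or inhibition moved the transcripts of a cancer cell line cultured on its own. The replicates are labelled biological, but separate cultures are not described, so the p-values measure the spread between these libraries. Only RNA was measured, and no secreted protein was.

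Chemokines are small secreted proteins that bind receptors on leukocytes and direct their migration. Cxcl9, Cxcl10 and Cxcl11 are ligands of CXCR3, which activated T cells and natural killer cells carry, and their genes are classical targets of interferon-activated STAT and IRF factors. Ccl5 acts on T cells and monocytes and binds CCR1, Ccl2 and Ccl7 bind CCR2 on monocytes, Cxcl1 binds CXCR2 on neutrophils, and Cxcl16 and Cx3cl1 are made as membrane proteins that sheddases can release. Csf1 is the growth and survival factor of macrophages and acts through CSF1R.

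Promoter sequence was taken from the RefSeq table of the GRCm38.p6 build, which held 5 of the 10 genes (Cxcl10, Cxcl9, Cxcl1, Cx3cl1 and Csf1). Cxcl11, Ccl5, Ccl2, Ccl7 and Cxcl16 had no entry there. The 250 bases before the start site are printed for a gene called in each comparison with its controls (Cxcl10), its neighbour with 1 read in all (Cxcl9) and 2 genes that were read in every library but called in no comparison by limma (Cxcl1 and Csf1). They lie at chr5:92348890-92349139 on the minus strand, chr5:92328080-92328329 on the minus strand, chr5:90890995-90891244 on the plus strand and chr3:107760470-107760719 on the minus strand. Each is written 5′ to 3′ along its gene, and capitals mark matches to a motif.
Cxcl10: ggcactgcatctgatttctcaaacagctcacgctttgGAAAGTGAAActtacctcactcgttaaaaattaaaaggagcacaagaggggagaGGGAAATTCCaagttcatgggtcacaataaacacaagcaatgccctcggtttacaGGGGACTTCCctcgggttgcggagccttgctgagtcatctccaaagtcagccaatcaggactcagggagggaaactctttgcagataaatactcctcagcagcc
Cxcl9: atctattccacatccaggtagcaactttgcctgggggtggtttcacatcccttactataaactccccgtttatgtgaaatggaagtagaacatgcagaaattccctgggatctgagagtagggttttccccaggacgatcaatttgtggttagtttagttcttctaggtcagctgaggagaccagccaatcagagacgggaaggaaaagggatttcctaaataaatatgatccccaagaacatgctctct
Cxcl1: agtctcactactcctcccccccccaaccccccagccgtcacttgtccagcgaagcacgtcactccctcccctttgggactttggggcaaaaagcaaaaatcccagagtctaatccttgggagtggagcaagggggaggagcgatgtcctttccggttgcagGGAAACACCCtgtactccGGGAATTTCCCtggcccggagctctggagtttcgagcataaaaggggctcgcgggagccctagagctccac
Csf1: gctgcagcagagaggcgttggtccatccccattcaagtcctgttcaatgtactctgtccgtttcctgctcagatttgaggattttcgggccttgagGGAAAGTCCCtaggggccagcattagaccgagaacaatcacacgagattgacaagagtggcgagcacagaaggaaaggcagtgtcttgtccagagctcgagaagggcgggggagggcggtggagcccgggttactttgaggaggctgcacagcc

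The motifs searched on both strands were an interferon-stimulated response element (GAAANNGAAA), an interferon gamma activated site (TTCNNNGAA) and a kappaB site (GGGNNNTTCC), which 2.98%, 7.02% and 4.65% of all 32851 windows of this length held. The Cxcl10 window held 1 response element, from -213 to -204 relative to the start site, and a pair of kappaB matches, from -159 to -150 and from -104 to -95. The Cxcl1 window held 3 kappaB matches, 2 of which overlap on opposite strands from -71 to -61. The Csf1 window held 1 kappaB match on its minus strand, from -154 to -145. The Cxcl9 and Cx3cl1 windows held none of these letters, which says nothing of the factors that act there.

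Values are the authors' normalized counts, which are reads per gene divided by a size factor of the library. The reads on genes recovered from them ran from 17284091 to 29233738 per library in the knockdown experiment and from 40119305 to 93697833 in the inhibitor experiment. Prmt1 itself had 5601, 5717 and 5620 normalized counts in shControl libraries and 669, 761 and 683 in shPrmt1 libraries. Of the defining epithelial markers of a colon carcinoma, Epcam had no read in any of the 15 libraries and Cdh1 had at most 2.29 normalized counts, whereas Krt18 averaged 572 in shControl and 941 in vehicle libraries. Of 12 immune cell markers, 1 (Cd14) averaged over 50 normalized counts in any group, while Ptprc had at most 6.11 and Cd3e was at 0 throughout.

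The order of the 10 transcripts by level was set per length, as RPKM, here the recovered reads per kb of the longest coding transcript scaled to the reads on genes of the library. In vehicle libraries Csf1 stood at 132 ± 24.8 (SD, n = 3), Cxcl10 at 22.8 ± 1.6, Ccl5 at 6.97 ± 0.39 and Cxcl1 at 3.39 ± 0.14 RPKM. Lower still were Ccl2 at 1.95 ± 0.22, Ccl7 at 0.624 ± 0.211 and Cxcl11 at 0.116 ± 0.040. The ranges of neighbours in this order did not overlap among the vehicle libraries. In shControl libraries the order of the means was the same, from Csf1 at 69.3 ± 5.72, Cxcl10 at 4.88 ± 0.30, Ccl5 at 2.13 ± 0.23 and Cxcl1 at 1.19 ± 0.02 down to Cxcl11 at 0.0225 ± 0.0048. Ccl2 (0.064 to 0.547) and Ccl7 (0.103 to 0.131) did not differ beyond their spread there. Csf1, the macrophage factor, was thus the most abundant of these transcripts in both experiments, and Cxcl10 was the most abundant chemokine. Each of the 7 genes had a higher mean in vehicle than in shControl cells, but these came from different experiments, with WT and hairpin-carrying cells, so cell and experiment cannot be told apart and no test was made.

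**Figure D1:**
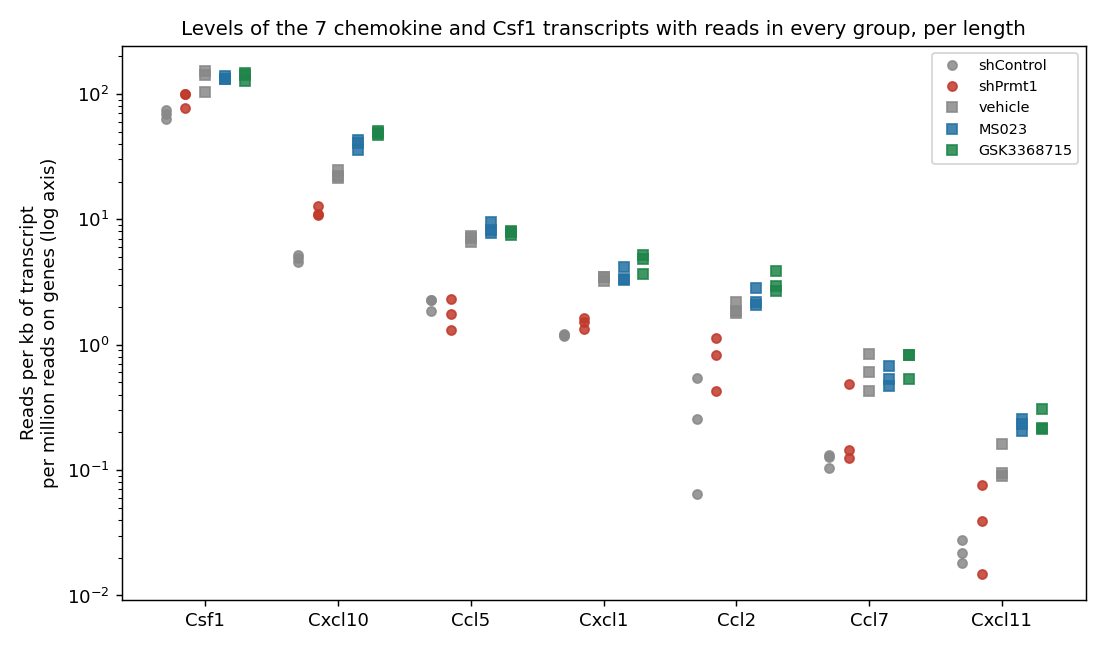
Level of each of the 7 transcripts with reads in every group, as RPKM on a log axis, with one point per library (circles, knockdown experiment, and squares, inhibitor experiment). Csf1 stands highest, at 132 in vehicle cells on average, and Cxcl11 lowest, at 0.116.

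At an adjusted p under 0.05, 1 of the 4 genes tested after Prmt1 knockdown was called higher (Cxcl10), where 14.7% of all genes tested were called in either direction and 7.50% as higher. Under MS023 2 of 7 were called higher (Cxcl10 and Cxcl11), against 27.9% of all genes in either direction and 13.7% as higher. Under GSK3368715 3 of 7 were called higher (Cxcl10, Cxcl11 and Ccl2), against 9.64% in either direction and 5.16% as higher. The tests were made with limma on log2(normalized count + 1), on which the added 1 shrinks the change of a scarce transcript, and each gene tested had over 10 normalized counts in every library of its experiment. The median log2 fold change of the genes tested was 0.33, 0.24 and 0.39 in these comparisons, with medians over all genes of -0.0036, 0.0028 and 0.00042. The groups did not overlap for 3 of 4 genes after knockdown (38.0% of all genes, 19.2% as higher), 3 of 7 under MS023 (44.5%, 22.4% as higher) and 5 of 7 under GSK3368715 (27.7%, 13.7% as higher), with the treated cells higher in each case. The MS023 and GSK3368715 comparisons share the vehicle libraries. In bulk RNA, a change in how many cells make a transcript and a change in RNA per cell cannot be told apart.

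**Figure D2:**
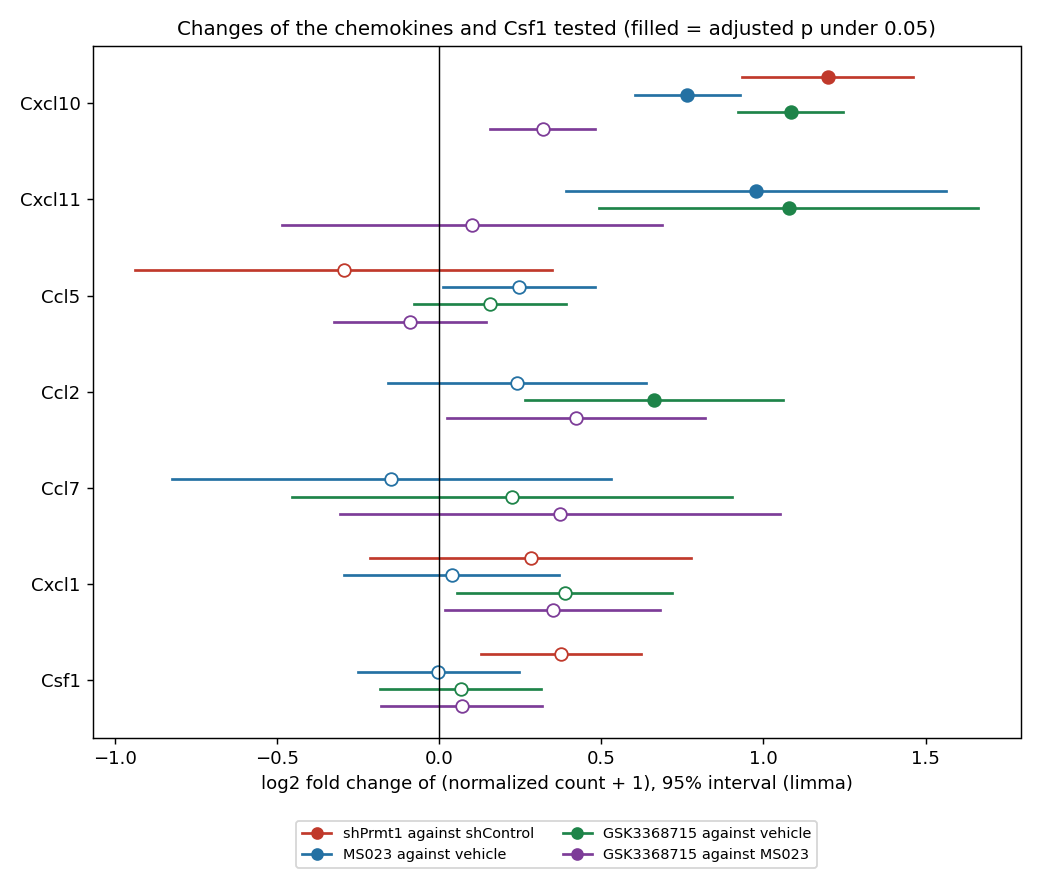
Log2 fold change of (normalized count + 1) with its 95% interval from limma for each gene tested, in the 4 comparisons, with filled points for an adjusted p under 0.05. Cxcl10 is filled in each comparison with control cells, at 1.20, 0.77 and 1.08, and in the comparison of the inhibitors with each other (0.32) no point is filled.

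Cxcl10 (ENSMUSG00000034855), Cxcl9 (ENSMUSG00000029417) and Cxcl11 (ENSMUSG00000060183) are neighbours on the minus strand of chromosome 5 in mm10, at 92346638 to 92348889, 92321347 to 92328079 and 92359544 to 92365485. Cxcl10 had 132, 148 and 139 normalized counts in shControl libraries and 304, 362 and 301 in shPrmt1 libraries. Every shPrmt1 library stood above every shControl library, and Cxcl10 rose 2.29-fold, a log2 fold change of 1.20 (SE 0.12, adjusted p = 4.9e-04 from limma). In the inhibitor experiment it had 1982, 1765 and 1807 in vehicle, 3401, 2852 and 3200 in MS023 and 4022, 3788 and 3962 in GSK3368715 libraries. The 3 groups did not overlap, with vehicle lowest and GSK3368715 highest. Cxcl10 rose 1.70-fold under MS023 (log2 0.77, SE 0.07, adjusted p = 8.6e-05 from limma) and 2.12-fold under GSK3368715 (log2 1.08, SE 0.07, adjusted p = 1.1e-04). Per length the level was 4.88 RPKM in shControl and 11.5 in shPrmt1 cells, and 22.8, 39.7 and 48.8 in vehicle, MS023 and GSK3368715 cells, so that vehicle cells of the inhibitor experiment stood above the knockdown cells of the other. With any 1 library left out, the log2 fold change stayed between 1.11 and 1.24 after knockdown, 0.71 and 0.84 under MS023 and 1.05 and 1.14 under GSK3368715, called each time. Art3, on the opposite strand, shares 133 exon bases with Cxcl10 and averaged 0 and 2.16 normalized counts in the 2 experiments.

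Cxcl11, the other CXCR3 ligand with reads, was far scarcer. In the inhibitor experiment it had 36.7, 20.6 and 21.7 normalized counts in vehicle, 56.9, 51.4 and 45.5 in MS023 and 48.02, 69.8 and 49.1 in GSK3368715 libraries. Both inhibitor groups lay above the vehicle group and overlapped each other. Cxcl11 rose 1.97-fold under MS023 (log2 0.98, SE 0.27, adjusted p = 0.020 from limma) and 2.11-fold under GSK3368715 (log2 1.08, adjusted p = 0.030). Under MS023 it was no longer called once vehicle 2 was left out (0.83, adjusted p = 0.056), nor without vehicle 3 (0.87, 0.067), MS023 1 (0.90, 0.069) or MS023 2 (0.97, 0.059), values being the log2 fold change and limma's adjusted p. Under GSK3368715 it was no longer called without vehicle 2 (0.93, 0.068), vehicle 3 (0.97, 0.1004), GSK3368715 1 (1.17, 0.054), GSK3368715 2 (0.91, 0.093) or GSK3368715 3 (1.16, 0.055), and with no filter on low counts (adjusted p = 0.067) or a replicate block (0.053). In the knockdown experiment only 6 shControl and 9 shPrmt1 reads were recovered in all, as 1.76, 1.44 and 2.21 against 1.14, 6.06 and 3.06 normalized counts, which overlap. Cxcl11 was therefore not tested there by limma, and the ratio of the read rates was 1.96 (exact 95% interval 0.624 to 6.70, counting error only). The annotation lists Cxcl11 as a polymorphic pseudogene. The processed pseudogene Gm2673 overlaps it on the opposite strand and shares 1582 exon bases with it. The 41.7% of the Cxcl11 transcript that matches Gm2673 with 100% identity is this same stretch on the opposite strand, not a separate copy. If strand was not used in counting, reads from it cannot be told apart, so the counts of Cxcl11 are uncertain. Gm2673 averaged 0.170 normalized counts in the knockdown experiment and 0 in the inhibitor experiment.

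Cxcl9, the third CXCR3 ligand, had no read in 14 libraries and 1 read in MS023 3. A count of 0 allows up to 0.0414 RPM in the shControl and 0.0542 in the shPrmt1 libraries together, and 0.0175 and 0.0173 in the vehicle and GSK3368715 libraries (3 reads over the group, counting error only). RPM here means reads scaled to the reads on genes summed over the libraries of the group. Cxcl9 was thus not detected in libraries where Cxcl10 had up to 4022 normalized counts, and no fold change was given. Within the CXCR3 ligands, Cxcl10 carried nearly all reads in each group.

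**Figure D3:**
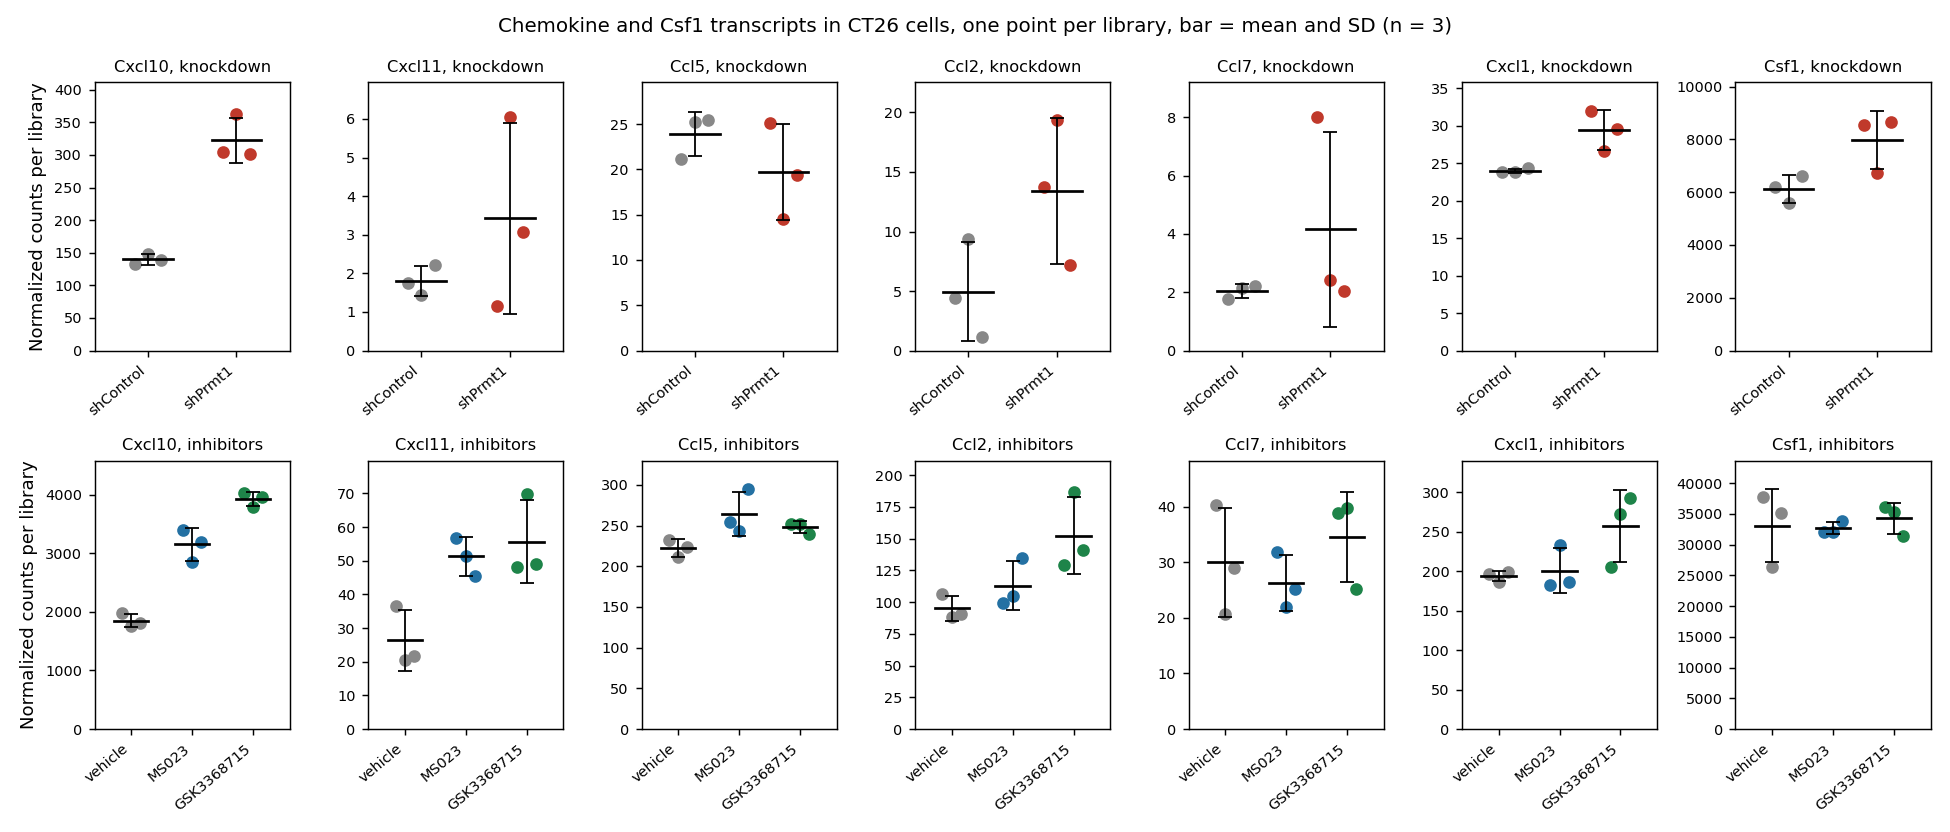
Normalized counts per library of the 7 transcripts with reads in every group, knockdown experiment above and inhibitor experiment below, with one point per library and bars for the mean and SD (n = 3). The Cxcl10 groups do not overlap, at 132 to 148 against 301 to 362 after knockdown, whereas the Ccl7 groups overlap in both experiments.

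Ccl5 (ENSMUSG00000035042, chromosome 11, 83525778 to 83530518, minus strand), a ligand that draws T cells and monocytes, was not called in any comparison. It had 21.1, 25.2 and 25.4 normalized counts in shControl and 25.1, 14.5 and 19.4 in shPrmt1 libraries. The groups overlapped, with a log2 fold change of -0.30 (95% interval -0.94 to 0.35, adjusted p = 0.51 from limma). In the inhibitor experiment it had 232, 211 and 224 in vehicle, 255, 244 and 295 in MS023 and 252, 252 and 239 in GSK3368715 libraries. Every inhibitor library stood above every vehicle library, by log2 0.25 under MS023 (interval 0.011 to 0.48, adjusted p = 0.109) and 0.15 under GSK3368715 (interval -0.080 to 0.39, adjusted p = 0.397 from limma). The upper bounds lie under the log2 fold change of Cxcl10 in each of the 3 comparisons.

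Ccl2 (ENSMUSG00000035385, 82035571 to 82037453) and Ccl7 (ENSMUSG00000035373, 82045712 to 82047525) are neighbours on the plus strand of chromosome 11, and both encode ligands of CCR2, the receptor that brings monocytes into tissues. Ccl2 had 106, 88.3 and 90.4 normalized counts in vehicle, 99.3, 105 and 135 in MS023 and 129, 187 and 141 in GSK3368715 libraries. The GSK3368715 libraries all lay above the vehicle libraries, whereas the MS023 libraries overlapped them. Ccl2 rose 1.58-fold under GSK3368715 (log2 0.66, SE 0.18, adjusted p = 0.044 from limma), and under MS023 the log2 difference was 0.24 (interval -0.16 to 0.64, adjusted p = 0.355). That call did not survive leaving out vehicle 2 (0.61, adjusted p = 0.086), vehicle 3 (0.63, 0.123), GSK3368715 1 (0.77, 0.0501), GSK3368715 2 (0.51, 0.124) or GSK3368715 3 (0.71, 0.078), nor leaving out MS023 1 or MS023 2, which only enter the shared estimate of the spread (0.66 each, adjusted p = 0.058 and 0.065). It was also lost with no filter (adjusted p = 0.088), by edgeR (0.051) and with a replicate block (0.084). In the knockdown experiment Ccl2 had 4.40, 9.36 and 1.11 normalized counts in shControl and 13.7, 19.4 and 7.14 in shPrmt1 libraries, from 19 and 35 reads. The groups overlapped through shControl 2 and shPrmt1 3, and the gene fell under the filter of limma. The ratio of the read rates was 2.41 (exact 95% interval 1.34 to 4.46, counting error only), and an exact two-sided permutation test over the libraries gave p = 0.2, where 3 against 3 cannot give less than 0.1.

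Ccl7, the scarcer neighbour, had 40.3, 20.6 and 28.9 normalized counts in vehicle, 31.9, 21.9 and 25.2 in MS023 and 38.9, 39.7 and 25.3 in GSK3368715 libraries. All 3 groups overlapped, with log2 differences from vehicle of -0.15 (interval -0.83 to 0.53, adjusted p = 0.756 from limma) and 0.22 (interval -0.45 to 0.90, adjusted p = 0.697). The GSK3368715 interval is wide enough to hold the change of Ccl2 under GSK3368715. After knockdown Ccl7 had 1.76, 2.16 and 2.21 normalized counts in shControl and 8.0, 2.42 and 2.04 in shPrmt1 libraries, from 7 and 11 reads, the highest value being that of shPrmt1 1.

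Cxcl1 (ENSMUSG00000029380, chromosome 5, 90891241 to 90893115, plus strand), a neutrophil chemoattractant, was not called in any comparison. It had 23.8, 23.8 and 24.3 normalized counts in shControl and 32.0, 26.7 and 29.6 in shPrmt1 libraries. The shPrmt1 libraries all lay above the shControl libraries, by log2 0.28 (interval -0.21 to 0.78, adjusted p = 0.409 from limma). In the inhibitor experiment it had 197, 187 and 199 in vehicle, 182, 233 and 186 in MS023 and 206, 272 and 293 in GSK3368715 libraries. MS023 libraries overlapped vehicle (log2 0.04, adjusted p = 0.874), and GSK3368715 libraries lay above vehicle (log2 0.39, interval 0.055 to 0.72, adjusted p = 0.131 from limma).

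The genes of the membrane-bound chemokines had no or few reads. Cxcl16 (ENSMUSG00000018920, chromosome 11, 70453983 to 70459984, minus strand), the ligand of CXCR6, had no read in any of the 15 libraries, which allows up to 0.0144 RPM in the MS023 and 0.0542 in the shPrmt1 libraries together. Cx3cl1 (ENSMUSG00000031778, chromosome 8, 94772009 to 94782427, plus strand), the ligand of CX3CR1, had 1 read in shControl and 0 in shPrmt1 libraries, and 2 in vehicle, 9 in MS023 and 2 in GSK3368715 libraries. All 9 MS023 reads came from MS023 1, so the MS023 range included 0 and overlapped vehicle. With Cxcl9, these 2 genes had too few reads for a test in either experiment.

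Csf1 (ENSMUSG00000014599, chromosome 3, 107741048 to 107760469, minus strand) stood at 6194, 5575 and 6594 normalized counts in shControl and 8559, 6708 and 8641 in shPrmt1 libraries. Every shPrmt1 library lay above every shControl library, shPrmt1 2 by the least. The log2 fold change was 0.37 (SE 0.11, interval 0.13 to 0.62), and its adjusted p of 0.0514 from limma just missed the threshold. Without shPrmt1 2 it was called at 0.49 (adjusted p = 0.0015), as it was by edgeR (0.38, adjusted p = 0.046) and DESeq2 (0.38, adjusted p = 0.0078) on the recovered reads. A replicate block in the fit also gave a call (0.37, adjusted p = 0.0031 from limma). Over the fits with 1 library left out, the adjusted p of Csf1 ran from 0.0015 to 0.152. In the inhibitor experiment Csf1 had 37789, 26380 and 35076 in vehicle, 32103, 32050 and 33784 in MS023 and 36109, 35340 and 31414 in GSK3368715 libraries. All 3 groups overlapped, within the wide range of vehicle, whose lowest value was vehicle 2. The log2 difference from vehicle was -0.0028 under MS023 (interval -0.25 to 0.25, adjusted p = 0.988) and 0.07 under GSK3368715 (interval -0.18 to 0.31, adjusted p = 0.764 from limma). The knockdown estimate of 0.37 lies outside both intervals, but the experiments were normalized separately and the difference between them was not tested.

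Compared with each other at the same dose and time, the inhibitors differed by no call among the 7 genes tested with limma or edgeR, where 0.515% of all genes were called (0.315% as higher under GSK3368715), and 3 genes had an unadjusted p under 0.05, as did 1722 of 13014 genes. Cxcl10 was higher in every GSK3368715 library than in every MS023 library (3788 to 4022 against 2852 to 3401 normalized counts), and it was the 1 gene of the 7 without overlap, which held for 21.4% of all genes (11.4% as higher in GSK3368715 cells). Its log2 difference was 0.32 (interval 0.16 to 0.48, adjusted p = 0.097 from limma), and DESeq2 called it (adjusted p = 0.0069). Ccl2 and Cxcl1 differed by 0.42 (interval 0.02 to 0.82, adjusted p = 0.347 from limma) and 0.35 (interval 0.02 to 0.68, adjusted p = 0.352), with overlapping libraries. The intervals of Cxcl11 (-0.49 to 0.69), Ccl5 (-0.33 to 0.14), Ccl7 (-0.31 to 1.05) and Csf1 (-0.18 to 0.32) held 0.

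Beside these 10, the tables held 29 other chemokine ligand genes, most of which had few or no reads. After knockdown 3 of the 29 were tested and 1 was called, and under each inhibitor 6 were tested and 1 was called, each time Ccl9, a ligand of CCR1, with list medians of 0.13, 0.21 and 0.11 after knockdown, MS023 and GSK3368715. Ccl9 rose from 23.5 ± 5.87 to 112 ± 38.6 normalized counts (SD, n = 3) after knockdown, a log2 fold change of 2.16 (SE 0.31, adjusted p = 0.0032 from limma), more than Cxcl10 there. From 121 ± 33.5 in vehicle it rose to 237 ± 43.4 under MS023 (0.98, adjusted p = 0.0074) and to 206 ± 29.7 under GSK3368715 (0.79, adjusted p = 0.045 from limma). The GSK3368715 call of Ccl9 did not survive leaving out vehicle 1 (0.55, adjusted p = 0.092), vehicle 2 (0.86, 0.052), GSK3368715 1 (0.69, 0.131), GSK3368715 2 (0.78, 0.105) or GSK3368715 3 (0.90, 0.057), or any MS023 library (0.79, adjusted p from 0.053 to 0.070), nor a replicate block in the fit (0.066). Among 22 chemokine receptor genes, 3 were tested after knockdown and none was called by limma, edgeR or DESeq2, with a list median of -0.29. An unadjusted p under 0.05 was reached by 2 of the 3, and by 3580 of all 11485 genes tested. Under each inhibitor 1 of 5 was called lower, Ccr1, a receptor of Ccl5, Ccl7 and Ccl9, from 59.6 ± 9.55 normalized counts in vehicle to 33.9 ± 5.66 under MS023 (-0.80, adjusted p = 0.036 from limma) and 28.6 ± 7.20 under GSK3368715 (-1.05, adjusted p = 0.026), while the list medians were 0.16 and 0.091. The MS023 call of Ccr1 was lost without any 1 vehicle or MS023 library (-0.91 to -0.66, adjusted p from 0.051 to 0.119) and the GSK3368715 call without any vehicle library, GSK3368715 2 or GSK3368715 3 (-1.16 to -0.90, adjusted p from 0.051 to 0.073). With a replicate block the adjusted p of Ccr1 was 0.063 under MS023 and 0.056 under GSK3368715. After knockdown Ccr1 was also lower, at 25.3 ± 5.52 against 41.6 ± 5.40 normalized counts in shControl, but was not called (-0.71, adjusted p = 0.085 from limma). Its groups did not overlap there, which held for 38.0% of all genes.

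Csf1 was set beside 12 other colony factor and receptor genes, of which 3 were tested in each experiment. Kitl, the ligand of KIT, rose after knockdown from 1597 ± 141 to 2502 ± 581 normalized counts (0.63, adjusted p = 0.025 from limma), a call lost without shControl 1 (0.56, adjusted p = 0.103), shControl 2 (0.69, 0.0504) or shControl 3 (0.62, 0.085). Flt3l, a growth factor of dendritic cells, rose under MS023 from 290 ± 93.3 to 454 ± 32.8 (0.70, adjusted p = 0.030), a call lost without vehicle 3 (0.77, 0.051), MS023 1 (0.75, 0.057), MS023 2 (0.65, 0.093) or MS023 3 (0.68, 0.082). Under GSK3368715 none of the 3 was called by limma, edgeR or DESeq2, and 0 had an unadjusted p under 0.05. Among 9 genes that shed or process chemokines, 1 of 6 tested was called, Mmp14 under MS023, which fell by 0.25 on the log2 scale (adjusted p = 0.0083 from limma). After knockdown none of 5 tested was called by limma, edgeR or DESeq2, with 0 at an unadjusted p under 0.05, and under GSK3368715 limma and edgeR called none of 6 and DESeq2 called 1, with 1 at an unadjusted p under 0.05. The list medians were 0.58, 0.21 and 0.14 for the colony factors and 0.030, 0.035 and 0.037 for the processing genes after knockdown, MS023 and GSK3368715.

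Of 14 genes of transcription factors known to act on chemokine promoters, all were tested. After knockdown 3 rose, Irf7 (1.80), Irf9 (0.64) and Stat2 (0.60), all carriers of the type I interferon response, with a list median of 0.080. Irf7 went from 250 ± 31.9 to 872 ± 21.7 normalized counts (adjusted p = 5.1e-05 from limma). Under MS023 6 rose, led by Irf7 (0.93) and Stat2 (0.66), and Jun fell by 0.49, with a list median of 0.25. Under GSK3368715 4 rose (Irf7 0.68, Stat2 0.59, Irf1 0.50 and Stat3 0.30), with a list median of 0.18. For this list and those above, the share of all genes called in either direction was 14.7% after knockdown, 27.9% under MS023 and 9.64% under GSK3368715. The share called higher was 7.50%, 13.7% and 5.16%. An unadjusted p under 0.05 was reached by 3580 of 11485 genes after knockdown, 5237 of 13014 under MS023 and 3393 of 13014 under GSK3368715. The GSK3368715 call of Irf7 was lost without vehicle 3 (0.68, adjusted p = 0.055) or GSK3368715 2 (0.58, 0.057). That of Stat3 was lost without GSK3368715 3 (0.26, adjusted p = 0.066 from limma). The kappaB subunits Rela and Nfkb1 had log2 fold changes of -0.12 and -0.04 after knockdown and 0.02 and -0.0084 under MS023. Under GSK3368715 they had 0.05 and 0.04, and neither was called in these comparisons. Nfkb2 was not called either (-0.15, 0.07 and 0.05). The subunits Relb and Rel were called higher under MS023 (0.38 and 0.24). They were not called after knockdown (-0.0034 and 0.11) or under GSK3368715 (0.27 and 0.24). Between the inhibitors no gene of these 5 lists was called by limma or edgeR, although 1 ligand, 1 colony factor, 1 processing and 1 transcription factor gene had an unadjusted p under 0.05, and DESeq2 called 1 transcription factor gene.

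**Figure D4:**
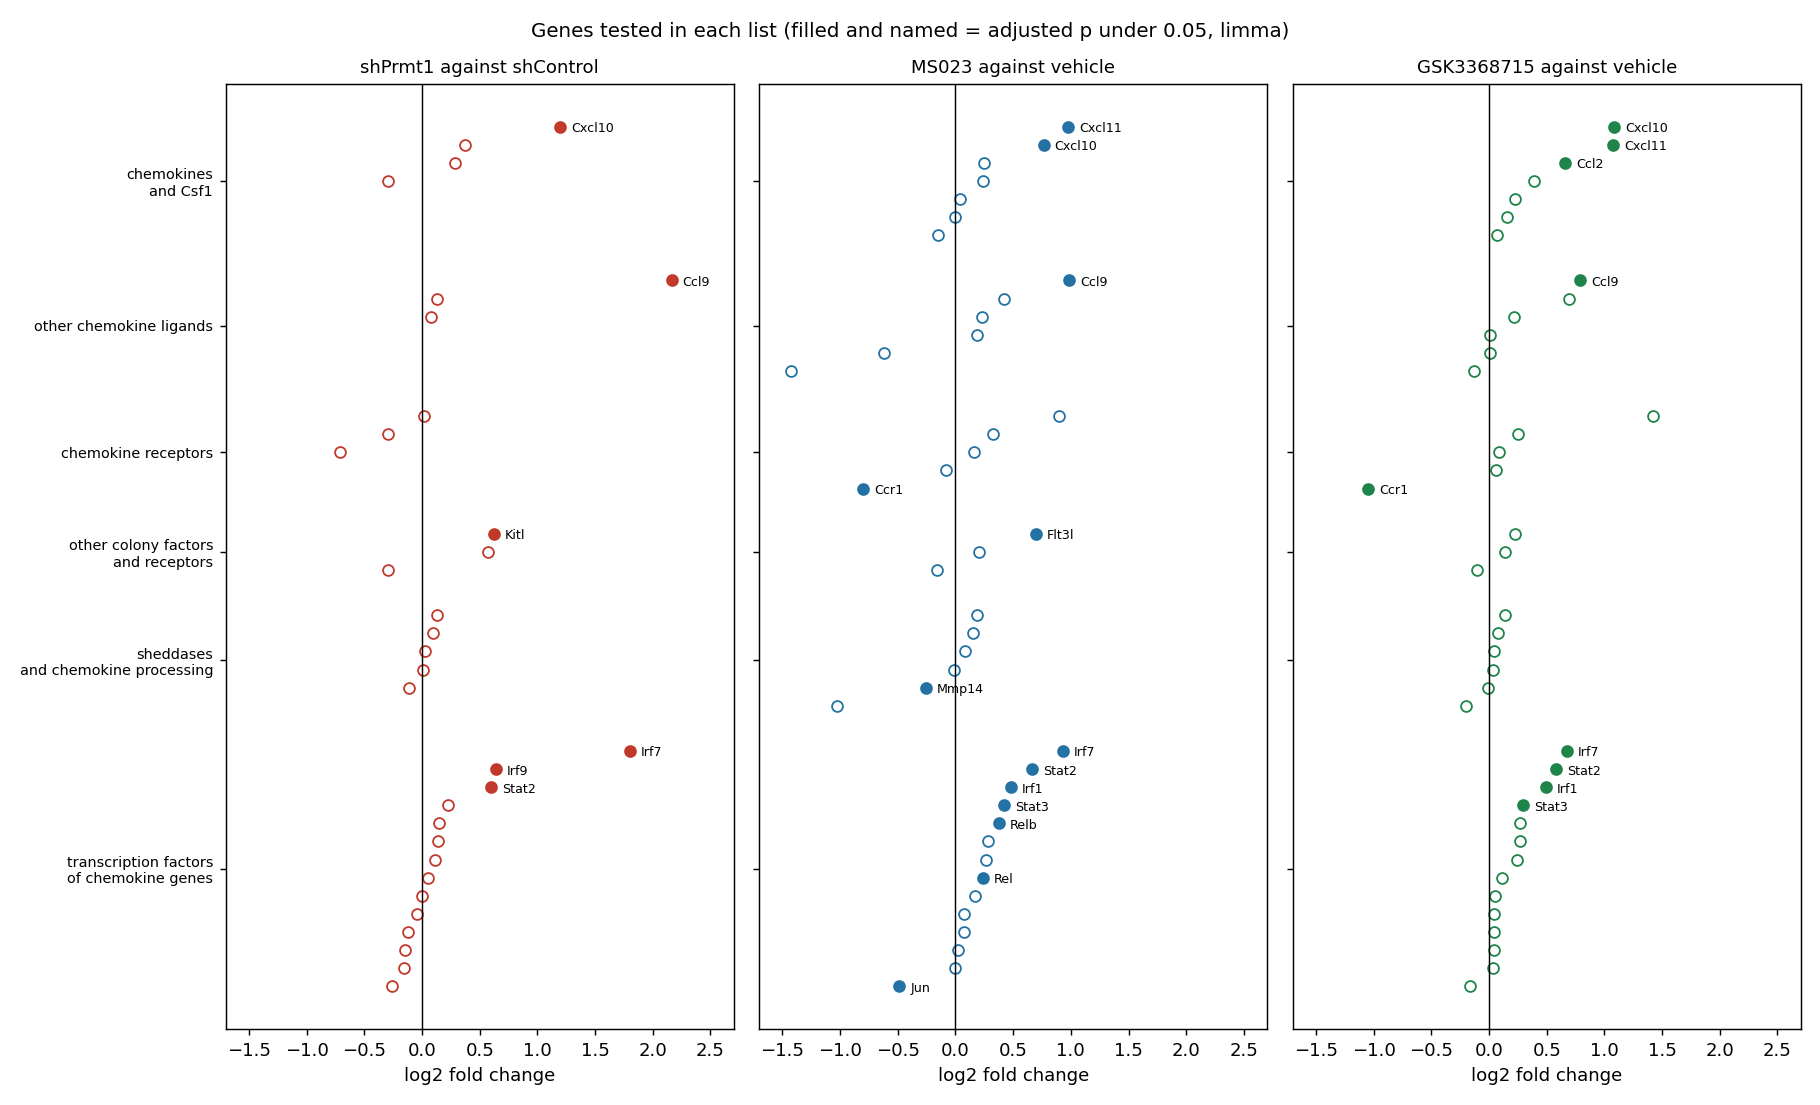
Log2 fold change of every gene tested in each list, one panel for each comparison with control cells, with filled and named points for an adjusted p under 0.05 (limma). Cxcl10, Ccl9, Irf7 and Stat2 are named in all 3 panels, with Ccl9 at 2.16 after knockdown.

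Transcripts listed as markers of immune, fibroblast and endothelial, and colon epithelial cells moved with some groups. Which cells made them, and their part in the values of the chemokines, was not tested. The summed normalized counts of 12 immune cell markers ran from 505 to 611 in shControl and 436 to 486 in shPrmt1 libraries, and from 1236 to 1546 in vehicle, 1005 to 1067 in MS023 and 1144 to 1257 in GSK3368715 libraries. They were lower than control in shPrmt1 and MS023 libraries and overlapped vehicle in GSK3368715 libraries. Cd14 made up most of these sums and fell under MS023 by 0.40 (adjusted p = 0.0071 from limma). The 10 fibroblast and endothelial markers summed to 2359 to 2994 in shControl and 3663 to 5541 in shPrmt1 libraries, with Col1a1 higher after knockdown (0.97) and lower under MS023 (-0.52), where the sum ran from 14140 to 18454 against 21037 to 21654 in vehicle and 20465 to 22881 in GSK3368715 libraries. Pdgfrb of the same list was higher in each comparison with control cells, by 0.69 after knockdown (adjusted p = 0.0027 from limma), 0.40 under MS023 (0.018, lost without MS023 2 at 0.39 and 0.057 or MS023 3 at 0.34 and 0.072) and 0.64 under GSK3368715 (0.0056). Of the 4 genes of this list tested after knockdown, 2 were above 0, while Pecam1 (-1.04) and Pdgfra (-0.41) were lower but not called. Under each inhibitor 6 were tested, with 4 above 0 under MS023 and 3 under GSK3368715, where Vwf (-0.69) was lower but not called. The list medians were 0.14, 0.21 and 0.16 after knockdown, MS023 and GSK3368715. The 10 colon epithelial markers summed to 729 to 812 in shControl and 544 to 670 in shPrmt1 libraries, and to 1287 to 1449, 1789 to 1880 and 1451 to 1617 in vehicle, MS023 and GSK3368715 libraries. Krt18 was lower after knockdown (-0.41, adjusted p = 0.031 from limma) and higher under MS023 (0.55, 6.9e-04) and GSK3368715 (0.27, 0.049). Of this list 2 genes were tested after knockdown, with 0 above 0, and 5 under each inhibitor, with 3 above 0. Krt8 was also called higher under MS023 (1.83, interval 0.59 to 3.08). Lower but not called were Krt20 after knockdown (-0.05), Cdx2 (-0.42) and Lgals4 (-0.11) under MS023, and Krt20 (-0.19) and Lgals4 (-0.77) under GSK3368715. The knockdown call of Krt18 was lost without any shControl library or shPrmt1 3 (-0.45 to -0.37, adjusted p from 0.053 to 0.129), and the GSK3368715 call without vehicle 2, vehicle 3 or any GSK3368715 or MS023 library (0.22 to 0.32, adjusted p from 0.056 to 0.163) and with the replicate block (0.094). Of the immune markers, 5 of 12 were at 0 in shControl, 6 in shPrmt1, 4 in vehicle, 2 in MS023 and 5 in GSK3368715 libraries. Of the fibroblast and endothelial markers 4 of 10 were at 0 in each group of the knockdown experiment and 1 in each group of the inhibitor experiment, and of the epithelial markers 4 in shControl, 3 in shPrmt1 and 1 in each group of the inhibitor experiment.

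The genes whose pattern was most like that of each chemokine were ranked by Pearson's r over the 15 libraries, after each log2 value was taken as the difference from the mean of its own control libraries. The libraries of an experiment share that reference and much of their depth, so r is a description. Of 10173 genes ranked, Ifi47, an interferon-inducible GTPase, was nearest to Cxcl10 (r = 0.98), followed by Cxxc5 (0.97) and Sfxn2 (0.96). For Csf1 they were Ajuba (0.93), Psrc1 (0.91) and Ephx1 (0.91), for Ccl5 Fkbp8 (0.93), Ptov1 (0.93) and Fbxl16 (0.92), and for Cxcl1 Rgs20 (0.88), Gm20498 (0.77) and Pxk (0.76). Among the 4 genes themselves, Cxcl10 was closest to Cxcl1 (0.60) and Csf1 (0.45), while its r with Ccl5 was -0.13.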

How the data were processed

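RNA of 15 CT26 libraries was sequenced as paired-end reads. The authors quantified the reads with Salmon 1.4.0 on mm10, per the submitters' processing notes, and the values they deposited are a normalized signal: counts per gene over a size factor from DESeq2, whose version is not given in the sources used here. The 2 tables were normalized separately. All values (100%, within 0.01) were whole multiples of the value of 1 read in their library, from which reads were recovered. The 3 deposited tables of the authors' own comparisons (fold changes and p-values) were not used.

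Genes that reached 10 normalized counts in 3 or more libraries of an experiment were tested on log2(normalized count + 1) with limma 3.58.1 (lmFit and eBayes with a trend, R 4.3.3), two-sided, 3 against 3 for the knockdown and over 9 libraries with 3 contrasts for the inhibitors, with Benjamini-Hochberg adjustment over 11485 and 13014 genes and a threshold of 0.05. The limma model was tested on simulated data, for the knockdown and MS023 comparisons only, and edgeR, DESeq2 and the replicate block were not. On the recovered reads edgeR 4.0.16 called 1712, 3620 and 1242 genes and DESeq2 1.42.0 called 2151, 4026 and 1810 for the knockdown, MS023 and GSK3368715.

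The 10 genes and the other lists were chosen with earlier results of these data known. Named besides the 10 were called genes of the lists (up to 4 per list and comparison by size of the change, given a mean of 50 or more normalized counts in either group), the 3 genes most like each gene tested in both experiments, and Prmt1. The remaining transcription factors, the kappaB subunits, the defining cell markers and the other cell markers were named after their values were seen. Positions are from GENCODE on mm10, and copies were searched with blastn 2.17.0 at 95% identity over 30% of a transcript. Whether counting used strand is not given in the sources used here. Recovered reads carry no molecular identifiers, so intervals and floors of 3 reads cover counting error only. Items withheld for evaluation are not reported here. Alternatives were other pseudocounts, filters, scalings and tools, a replicate block, fewer groups and each library left out.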

Additional observations from a re-analysis of the deposited data

How the results depend on the processing

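Cxcl10 kept its direction and call in the 3 comparisons with control cells under every alternative. The number of the 10 genes called after knockdown was 2 with a minimum of 50 normalized counts, the same total, edgeR, DESeq2 or the replicate block, Csf1 being the addition (1 to 2 with a library left out). It ran from 1 to 2 for MS023 and 1 to 3 for GSK3368715 with a library left out, and was 1 for GSK3368715 with no filter, only the groups compared or the replicate block. Between the inhibitors it was 1 by DESeq2 and 0 with any library left out. Genes called in all ran from 652 (without shControl 1) to 2472 (without shPrmt1 2) after knockdown, with 883, 723 and 1072 without shControl 2, shControl 3 and shPrmt1 3, 2409 (without MS023 2) to 3726 for MS023, 586 (without vehicle 3) to 1274 for GSK3368715, with 757 and 778 without GSK3368715 1 and 3, and 2 to 114 between the inhibitors, and came to 597 for GSK3368715 with only the groups compared, and 38 with no filter, 8 with no trend and 377 by DESeq2 between the inhibitors. The cause was not tested.

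Reversals concerned differences near 0. Csf1 under MS023 was 0.0073 with the same upper quartile, 0.032 with the same total and -0.16 to 0.10 with a library left out, and under GSK3368715 -0.089 to 0.17. With a library left out, Ccl7 ran from -0.38 to 0.085 under MS023 and -0.0093 to 0.46 under GSK3368715, Cxcl1 under MS023 from -0.074 to 0.10, and Cxcl11 between the inhibitors from -0.071 to 0.19.

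The labels number the replicates but do not say whether same-numbered libraries belong together, and the main tests left the numbers out. Deviations of same-numbered libraries correlated at 0.06 to 0.12 in the knockdown experiment, where 6 of 6 libraries were closest to their own number. In the inhibitor experiment the correlations ran from -0.10 to 0.11 (2 of 9). The replicate block moved genes called to 2671 after knockdown, 3219 for MS023, 860 for GSK3368715 and 4 between the inhibitors. With it Csf1 was called after knockdown (adjusted p = 0.0031 from limma), and Cxcl11 and Ccl2 lost their GSK3368715 calls (adjusted p = 0.053 and 0.084), as did Ccl9 and Krt18 (0.066 and 0.094) and, under both inhibitors, Ccr1 (0.063 and 0.056). It ended no other call for which an adjusted p is given in the report.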
